A study of Rattus norvegicus with 6 samples.

Results

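At a replication fork, the CDC45-MCM-GINS helicase unwinds the double helix, DNA polymerase alpha with primase lays down short primers, and DNA polymerases epsilon and delta copy the leading and lagging strands. The ring-shaped clamp PCNA, loaded by replication factor C (RFC), holds the polymerases on their template, RPA coats the exposed single strand, and flap nuclease and ligase join the Okazaki fragments of the lagging strand while CAF-1 places histones on the new DNA. Genes of this machinery are transcribed mostly in dividing cells around the entry into S phase, and oligodendrocyte precursor cells (OPCs), which renew themselves by division before they form myelinating oligodendrocytes, are such cells. The genes described here are the 41 named genes of the fork in 11 subcomplexes. They were found by gene name in the authors' table, in which 40 of the 41 had a row among 32883 genes, and all 40 passed the filter on low counts. Dna2, a nuclease of Okazaki fragment processing, had no row under that name, so only its promoter is described. Every tested member was expressed in both groups, and none passed the filter through 1 group alone.

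RNA was taken from primary OPCs of newborn (P0) Sprague Dawley rats, made by shaking mixed cortical cultures from 2 animals and plating the detached cells in Neurobasal with B27 and N2. The control group received the solvent DMSO, and the treated group received 5 µM ZJU-37, a small-molecule inhibitor of the kinase RIPK1 derived from Nec-1s, both for 36 h according to the labels, while the study's methods give a shorter time. Each group had 3 poly-A libraries, which the methods call biological repeats and a legend calls plate wells, so that the spread between them may be partly technical. The cells were not sorted, and markers of OPCs, mature oligodendrocytes, astrocytes and microglia were all detected. Library totals were 13935865 to 18754529 counts in DMSO and 17769843 to 24097927 in ZJU-37. Expression is given as CPM, counts scaled to library size with TMM factors, and a group's values are listed in the order of replicates 1, 2 and 3. Folds are those fitted by edgeR. Levels are compared between genes only as the authors' FPKM or as ratios per length, which also divide by gene length.

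Relative to all mRNA, fork genes were higher in the ZJU-37-treated OPC cultures in all 11 subcomplexes, each with at least 2 members higher. For RNase H2 both calls were lost in some runs that left out 1 library. Of the 40 tested members, 36 (90%) were higher with ZJU-37 at an adjusted p-value under 0.05 in edgeR's quasi-likelihood test, where 9.43% of all 14670 tested genes were. None was lower at that threshold, where 5.58% of all tested genes were, and none was lower at an unadjusted p under 0.05 or in DESeq2. Increases of at least 2-fold past the same threshold were seen in 15 members, against 2.79% of all tested genes. In 37 members the 3 ZJU-37 libraries lay above the 3 DMSO libraries without overlap, against 19.0% of all tested genes. The median log2 fold change was 0.83 over the 40 members and -0.027 over all tested genes. The 40 genes together took 0.124% to 0.128% of the counts of a DMSO library and 0.211% to 0.254% of those of a ZJU-37 library. Mki67, the gene of the proliferation marker Ki67, had a log2 fold change of 1.32 in the same test, and 1 fork member, Dscc1, had a larger one.

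**Figure D1:**
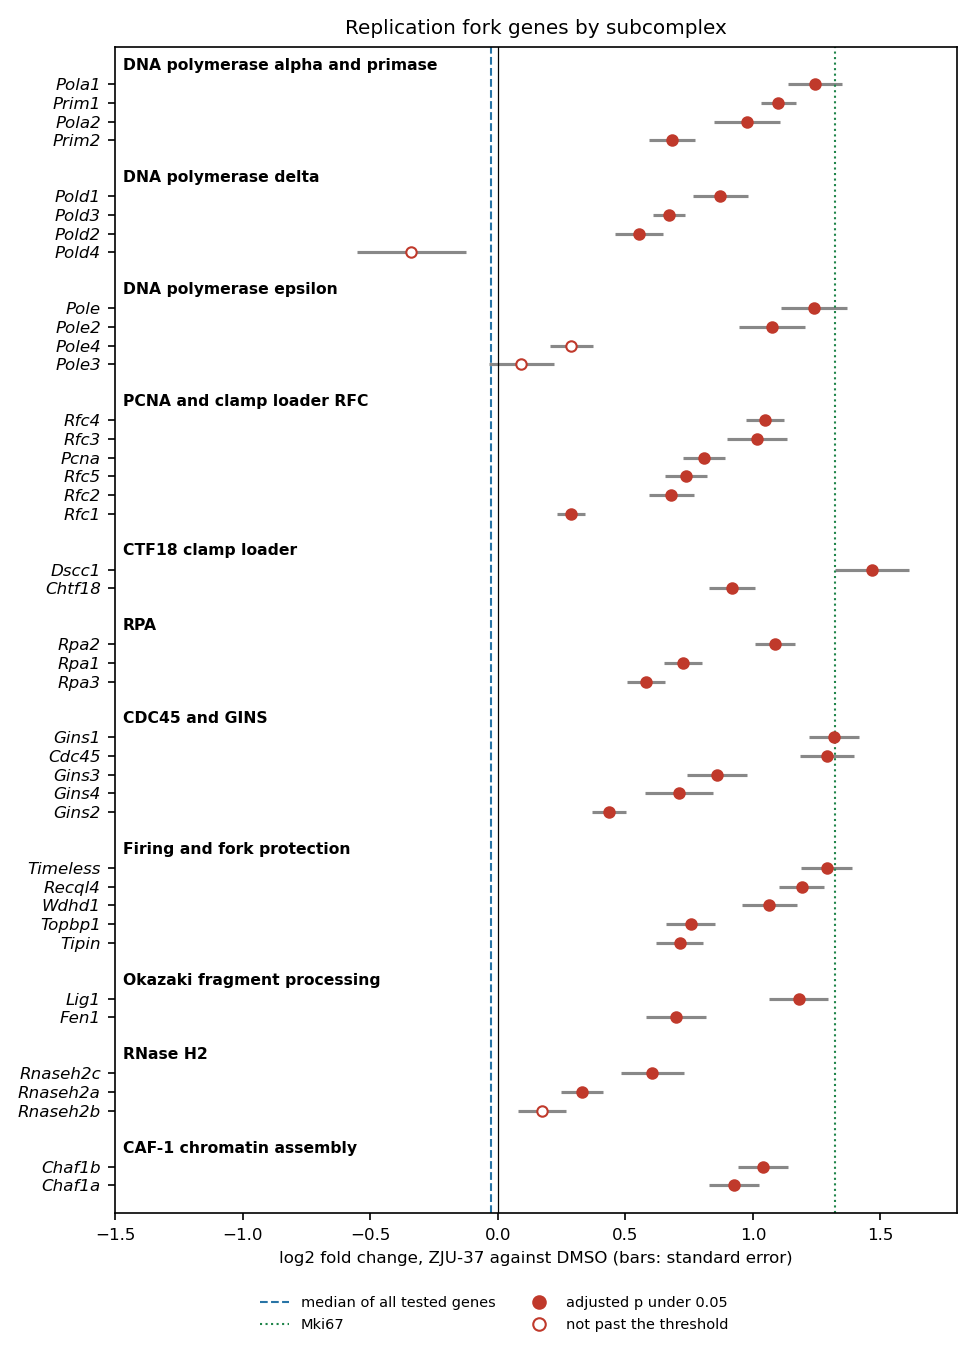
Log2 fold change of the 40 tested fork genes, ZJU-37 against DMSO, by subcomplex, with standard errors as bars (n = 3 libraries per group). Filled points passed an adjusted p of 0.05 and open points did not (Pold4, Pole4, Pole3 and Rnaseh2b). The dashed line is the median of all tested genes at -0.027 and the dotted line is Mki67 at 1.32.

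Both groups carry replicate numbers 1 to 3, and same-numbered libraries deviated together from their group means (correlations in the methods). The labels do not state that they were paired, so results with the block assume it. With the replicate number as a block, 37 members were higher and 1 was lower, where 16.2% of all tested genes were higher and 15.9% lower. The additional higher member was Pole4, and the lower member was Pold4. Within the replicate pairs, 39 of the 40 members were higher with ZJU-37 in all 3 pairs, the exception being Pold4. The median log2 difference of the members was 0.95 in pair 1, 0.72 in pair 2 and 0.78 in pair 3, and 31 members had their largest difference in pair 1. How many of all tested genes shared these patterns across pairs was not counted, so they are not shown to be particular to the members.

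Promoter sequences of the members are shown as a description, and whether they have a part in the change was not tested. The 250 bases before the annotated start, from RefSeq on build GRCr8, were found for 37 of the 41 genes and searched on both strands for words of E2F, the transcription factor family best known for driving S-phase genes (TTTCCCGC, TTTCGCGC, TTTGGCGC or TTTGCCGC). At least 1 such word stood in 7 of the 37 (18.9%), against 1.73% of all 33469 promoters of that length in the table and 3.22% of 10396 promoters of tested genes. The 7 were Pola1, Pole4, Gins1, Gins3, Topbp1, Tipin and Dna2. They comprise 5 of the 32 members called higher and 2 of the 5 others, Pole4 (not called) and Dna2 (not measured). Below are the windows of the 6 measured genes around the word nearest to the start, 5′ to 3′ in the direction of the gene and ending at the start where it is closer, with the E2F words in capitals.
Gins1: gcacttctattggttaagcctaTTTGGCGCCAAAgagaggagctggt
Gins3: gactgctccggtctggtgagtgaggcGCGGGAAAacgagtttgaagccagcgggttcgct
Topbp1: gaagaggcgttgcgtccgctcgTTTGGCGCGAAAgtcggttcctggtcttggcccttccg
Tipin: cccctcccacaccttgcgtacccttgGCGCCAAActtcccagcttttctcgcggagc
Pola1: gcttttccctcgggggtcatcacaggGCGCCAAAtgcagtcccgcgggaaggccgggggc
Pole4: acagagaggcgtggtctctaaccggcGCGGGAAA
These windows lie at chr3:160184873-160184919 (plus strand) for Gins1, chr19:9434682-9434741 (minus strand) for Gins3, chr8:112766725-112766784 (plus strand) for Topbp1, chr8:73676034-73676090 (plus strand) for Tipin, chrX:62342494-62342553 (minus strand) for Pola1 and chr4:116728852-116728885 (minus strand) for Pole4. In Gins1 and Topbp1 the capitals hold 2 words that overlap on opposite strands. In Pole4 the word ends directly at the start, and in Gins1, Tipin, Gins3, Topbp1 and Pola1 it ends 13, 23, 28, 32 and 164 bases before it. The median log2 fold change was 0.81 for the measured genes with a word and 0.84 for those without. Other words were held about as often by the members as by the promoters of tested genes. The NF-Y word CCAAT stood in 16 of 37 (43.2% against 35.1%), the Sp1 word GGGCGG in 23 (62.2% against 58.7%) and the CHR word TTTGAA in 4 (10.8% against 10.2%). Over all promoters in the table the shares were 34.0%, 30.5% and 16.2%. Such a match is a description of letters and not a binding site.

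The helicase partners CDC45 and GINS were all higher, but by unequal amounts. Cdc45, which joins the MCM ring to GINS, had 16.6, 16.1 and 16.4 CPM in the DMSO libraries and 44.8, 40.3 and 35.0 CPM in the ZJU-37 libraries, a 2.45-fold increase (edgeR adjusted p = 5.68e-04). The Cdc45 span holds Cldn5, an endothelial gene with no counts here, on the other strand. Gins1 rose from 14.2, 13.6 and 12.4 CPM to 35.7, 33.7 and 30.6 CPM, a log2 fold change of 1.32 (SE 0.098, edgeR adjusted p = 4.39e-04). Gins2 moved least, from 29.4, 27.9 and 26.6 CPM to 37.7, 37.4 and 38.2 CPM, a log2 fold change of 0.44 (SE 0.068, edgeR adjusted p = 0.00667). The ZJU-37 libraries lay above the DMSO libraries for all 5 genes. Gins3 and Gins4, the other 2 subunits, lay between them, with log2 fold changes of 0.86 and 0.71. GINS subunits assemble in equal numbers as protein, and per length the Gins1 to Gins2 ratio was 1.88, 1.89 and 1.81 in DMSO and 3.69, 3.50 and 3.12 in ZJU-37 in replicate order. The mean log2 ratio was thus 0.88 higher with ZJU-37 (exact permutation test, two-sided, p = 0.1, which is the least that 3 libraries against 3 can give).

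Genes that fire origins and protect the fork rose as well. Timeless, whose protein travels with the fork together with TIPIN, had 36.3, 36.4 and 30.6 CPM in DMSO and 93.0, 79.7 and 79.6 CPM in ZJU-37, a log2 fold change of 1.29 (SE 0.10, edgeR adjusted p = 5.21e-04). Tipin went from 12.3, 11.98 and 12.8 CPM to 21.6, 19.6 and 19.6 CPM, a log2 fold change of 0.71 (SE 0.092, edgeR adjusted p = 0.00314). The groups did not overlap for either gene, and the larger change was that of Timeless. An annotated copy, Tipinl1, showed a log2 fold change of 0.76 (adjusted p = 0.0239, edgeR), and with both entries summed Tipin had 0.73. Recql4, a helicase needed for the start of replication, rose 2.28-fold, and Wdhd1, which tethers polymerase alpha to the helicase, rose 2.09-fold. Topbp1, a scaffold for CDC45 loading and for the ATR checkpoint, rose 1.69-fold. Adjusted p-values of these 3 in edgeR were 4.38e-04, 0.00121 and 0.00289.

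All subunits of the priming enzyme were higher. Pola1, the catalytic subunit of polymerase alpha, had 25.9, 24.9 and 24.4 CPM in DMSO and 67.5, 51.7 and 58.9 CPM in ZJU-37, a log2 fold change of 1.24 (SE 0.11, edgeR adjusted p = 6.20e-04). Prim2, the large primase subunit, had 23.4, 21.6 and 20.4 CPM and 37.5, 32.3 and 35.0 CPM, a log2 fold change of 0.68 (SE 0.090, edgeR adjusted p = 0.00342). Every ZJU-37 library exceeded every DMSO library in both genes, with fitted increases of 2.37-fold for Pola1 and 1.604-fold for Prim2. Prim1, the small primase subunit that makes the primer, rose 2.14-fold and Pola2 rose 1.97-fold. The span of Pola2 overlaps that of Cdc42ep2, a gene on the same strand, whose row held 895 counts against 3510 for Pola2 over the 6 libraries. Counting by strand would not separate their reads, so the Pola2 value is less certain.

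DNA polymerase epsilon, the leading-strand enzyme, divided by subunit. Pole, the catalytic subunit, had 41.5, 43.8 and 36.4 CPM in DMSO and 113, 90.3 and 84.4 CPM in ZJU-37, a log2 fold change of 1.24 (SE 0.13, edgeR adjusted p = 0.00132). Pole2, the subunit that binds GINS, rose 2.11-fold from 10.3, 11.1 and 10.2 CPM to 25.7, 21.7 and 19.3 CPM (adjusted p = 0.00235, edgeR). Both were separated between the groups, with ZJU-37 replicate 1 the highest library. Pole3 and Pole4 encode small histone-fold subunits, and POLE3 also works in a chromatin remodeling complex. Pole4 had 34.7, 34.7 and 36.3 CPM in DMSO and 39.9, 41.5 and 47.6 CPM in ZJU-37, a log2 fold change of 0.29 (95% interval 0.087 to 0.49) with an adjusted p of 0.068 in edgeR and of 0.00948 with the replicate block. Its groups did not overlap, but the step was small beside that of Pole.

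The row named Pole3 needs a caution. It gave 9.13, 8.13 and 8.81 CPM in DMSO and 10.2, 8.63 and 8.93 CPM in ZJU-37, a log2 fold change of 0.091 (95% interval -0.21 to 0.39, adjusted p = 0.698, edgeR), with overlapping groups. This row is a 438-base model without introns on chromosome 7 in the authors' table, whereas the RefSeq promoter table places Pole3 on chromosome 5. A second row on chromosome 5, LOC100362333, is described in the authors' table as DNA-directed DNA polymerase epsilon 3 and held 52.0, 53.8 and 59.4 CPM in DMSO and 71.6, 68.8 and 68.0 CPM in ZJU-37. That row was higher, with a log2 fold change of 0.33 (SE 0.070, edgeR adjusted p = 0.0211). With both entries summed the log2 fold change was 0.30 (SE 0.067, adjusted p = 0.0255, edgeR), past the threshold but about as small as that of Pole4. This row and Tipinl1 were chosen after their values were seen. How reads were divided between these entries was not tested.

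DNA polymerase delta, the lagging-strand enzyme, also divided by subunit. Pold1, the catalytic subunit, rose from 41.7, 38.2 and 40.4 CPM to 85.5, 67.5 and 67.4 CPM, a log2 fold change of 0.87 (SE 0.11, edgeR adjusted p = 0.00263). Pold3 and Pold2 rose 1.59-fold and 1.47-fold. Pold4, the smallest subunit, had 17.4, 25.5 and 25.7 CPM in the DMSO libraries and 14.1, 22.0 and 18.3 CPM in the ZJU-37 libraries. Replicate 1 was the lowest library of each group, and the groups overlapped. The log2 fold change of Pold4 was -0.34 (95% interval -0.85 to 0.17, adjusted p = 0.362), and the replicate block gave -0.34 with an adjusted p of 0.0199 (edgeR). Within pairs 1, 2 and 3 Pold4 differed by -0.30, -0.22 and -0.49, so that it was lower with ZJU-37 in each pair, the only member with that direction. Per length, the Pold4 to Pold1 ratio was 2.06, 3.30 and 3.15 in DMSO and 0.812, 1.61 and 1.34 in ZJU-37 (exact permutation test, p = 0.1). The span of Pold2 overlaps that of Aebp1 on the other strand, whose row held 2422 counts against 4628 for Pold2. The counting strand is not given, so the Pold2 value is less certain.

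**Figure D2:**
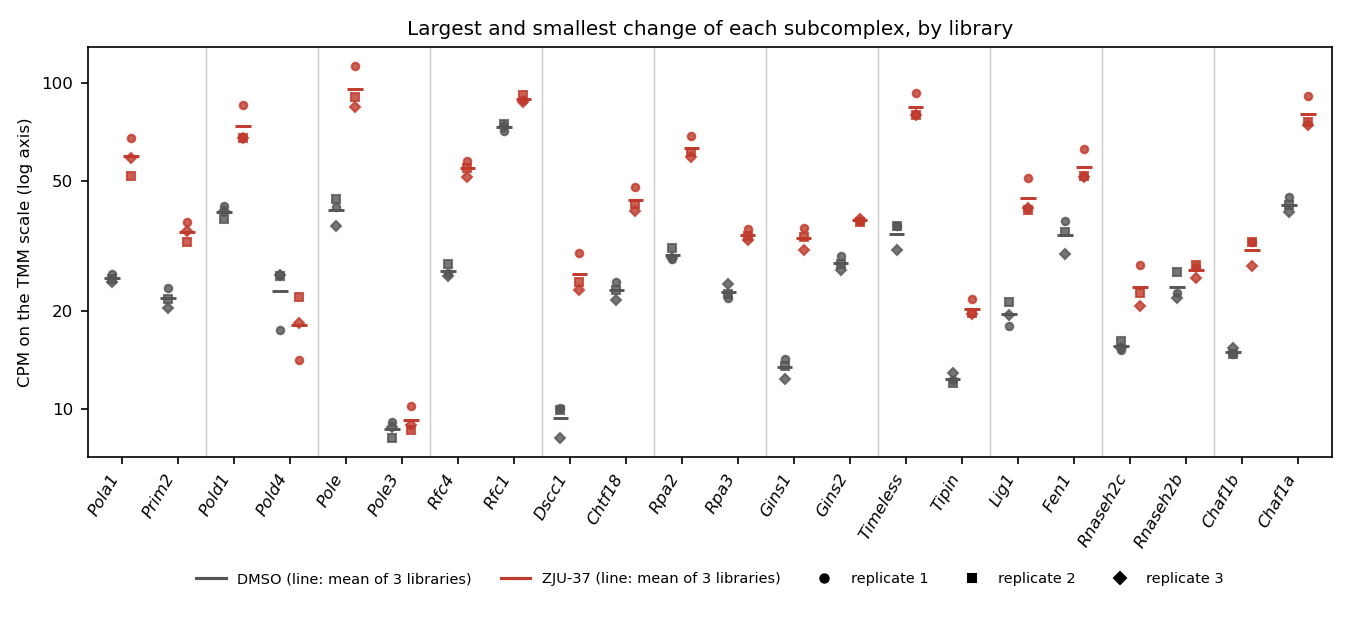
CPM on the TMM scale (log axis) in each library for the member with the largest and the member with the smallest log2 fold change of each subcomplex, DMSO in grey and ZJU-37 in red, with a line at the mean of 3 libraries and a marker shape for each replicate number. The groups overlap for Pold4, Pole3 and Rnaseh2b and are apart for the other genes shown.

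The sliding clamp was the most abundant fork transcript. Pcna had a mean of 147 ± 2.94 FPKM in DMSO and 257 ± 28.9 FPKM in ZJU-37 (SD, n = 3 libraries), against 1.91 ± 0.0296 and 4.35 ± 0.336 FPKM for Recql4, the least abundant member. In counts, Pcna went from 176, 169.6 and 168 CPM to 335, 283 and 282 CPM, a log2 fold change of 0.81 (SE 0.084, edgeR adjusted p = 0.00132). Across the 40 members, the log2 fold change fell with the DMSO level (Spearman rho -0.57 and Pearson r -0.49 with log2 FPKM, across genes, which are not independent and which share the DMSO libraries in both measures).

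RFC, the pentamer that opens the PCNA ring, was higher in every subunit. Rfc4 rose from 26.005, 27.8 and 25.5 CPM to 57.6, 54.7 and 51.5 CPM, a log2 fold change of 1.05 (SE 0.074, edgeR adjusted p = 4.05e-04), and Rfc3, Rfc5 and Rfc2 had log2 fold changes of 1.02, 0.74 and 0.68. Rfc1, the large subunit particular to the canonical loader, had 71.2, 74.7 and 73.1 CPM and 88.4, 91.8 and 87.1 CPM, a log2 fold change of 0.29 (SE 0.054, edgeR adjusted p = 0.0145). Its libraries did not overlap, yet its step was the smallest of the pentamer. Without DMSO replicate 2 or DMSO replicate 3 its adjusted p was 0.0517 or 0.0554.

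Rfc2 to Rfc5 are shared by loaders that differ in their large subunit, and these large subunits moved by different amounts. Chtf18, of the loader linked to sister chromatid cohesion, had 24.4, 23.2 and 21.6 CPM in DMSO and 47.7, 42.5 and 40.5 CPM in ZJU-37, a log2 fold change of 0.92 (SE 0.090, edgeR adjusted p = 0.00107). Its partner Dscc1 had the largest log2 fold change of all members, from 10.1, 9.89 and 8.12 CPM to 30.1, 24.4 and 23.1 CPM, a log2 fold change of 1.47 (SE 0.14, edgeR adjusted p = 0.0011). The third partner, Chtf8, is no member and had 0.15 (adjusted p = 0.0974 in edgeR, and 0.0426 with the replicate block). Of the other large subunits, Atad5, of the loader that removes PCNA, had a log2 fold change of 1.09 (adjusted p = 0.00144). Rad17, of the checkpoint clamp loader, had 0.11 (95% interval -0.049 to 0.27, adjusted p = 0.346, edgeR). Per length, Chtf18 stood to Rfc1 at 0.457, 0.414 and 0.394 in DMSO and 0.720, 0.617 and 0.620 in ZJU-37, and Atad5 to Rfc1 at 0.316, 0.322 and 0.286 in DMSO and 0.631, 0.494 and 0.493 in ZJU-37. Rad17 stood to Rfc1 at 0.637, 0.579 and 0.610 in DMSO and 0.539, 0.529 and 0.544 in ZJU-37. The first 2 ratios were higher and the last lower in all 3 ZJU-37 libraries (exact permutation tests, p = 0.1 each, and 0.125 adjusted over 30 ratios). Chtf8 to Chtf18 differed by -0.77 in mean log2 ratio. These 4 ratios, and that of Rbbp4 to Chaf1a, were chosen after their values were seen.

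RPA, the single-strand binding trimer, rose in all subunits. Rpa2, the subunit phosphorylated under replication stress, had 28.9, 31.1 and 29.0 CPM in DMSO and 68.7, 61.2 and 59.1 CPM in ZJU-37, a log2 fold change of 1.09 (SE 0.080, edgeR adjusted p = 4.30e-04). Rpa3, the small structural subunit, had 21.9, 22.4 and 24.1 CPM and 35.6, 33.8 and 32.9 CPM, a log2 fold change of 0.58 (SE 0.075, edgeR adjusted p = 0.00306). Neither gene's groups overlapped, and Rpa1, the main DNA-binding subunit, lay between them at 0.73. Per length, the Rpa2 to Rpa1 ratio was 1.13, 1.21 and 1.11 in DMSO and 1.46, 1.51 and 1.47 in ZJU-37, a mean log2 difference of 0.36 (exact permutation test, p = 0.1).

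Both measured genes of Okazaki fragment joining rose. Lig1, the ligase that seals the nick, had 17.9, 21.3 and 19.4 CPM in DMSO and 50.9, 40.6 and 41.4 CPM in ZJU-37, a log2 fold change of 1.18 (SE 0.12, edgeR adjusted p = 0.00111). Fen1, the flap nuclease that trims the displaced primer, had 37.7, 34.7 and 29.8 CPM and 62.7, 51.8 and 51.3 CPM, a log2 fold change of 0.70 (SE 0.12, edgeR adjusted p = 0.00985). The DMSO and ZJU-37 libraries were apart in both.

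RNase H2, which removes ribonucleotides left in DNA, changed least of the subcomplexes, with a median log2 fold change of 0.33. Rnaseh2c, an accessory subunit, had 15.1, 16.1 and 15.4 CPM in DMSO and 27.6, 22.6 and 20.7 CPM in ZJU-37, a log2 fold change of 0.60 (SE 0.12, edgeR adjusted p = 0.0196). Rnaseh2b, the other accessory subunit, had 22.7, 26.3 and 21.9 CPM and 27.2, 27.5 and 25.2 CPM with overlapping groups, a log2 fold change of 0.17 (95% interval -0.055 to 0.40, adjusted p = 0.3, edgeR). Rnaseh2a, the catalytic subunit, had 0.33 (adjusted p = 0.0403), a call that was lost without any 1 of the 6 libraries (adjusted p from 0.0556 to 0.125). The call of Rnaseh2c was lost without DMSO replicate 1, 2 or 3 (0.0663, 0.0615 and 0.0704). Rnaseh2c overlaps Kat5, whose row held 5271 counts against 2261, so its value is less certain.

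CAF-1, which deposits histones H3 and H4 behind the fork, rose in both members. Chaf1b had 14.8, 14.7 and 15.3 CPM in DMSO and 32.5, 32.4 and 27.3 CPM in ZJU-37, a log2 fold change of 1.04 (SE 0.097, edgeR adjusted p = 8.46e-04). Chaf1a, the large subunit that binds PCNA, had 44.7, 42.0 and 40.0 CPM and 90.9, 75.5 and 74.1 CPM, a log2 fold change of 0.92 (SE 0.097, edgeR adjusted p = 0.00142). The groups were apart, and the Chaf1b to Chaf1a ratio per length overlapped between them (mean log2 difference 0.12, exact permutation test, p = 0.4). Rbbp4, the third CAF-1 subunit, which also serves other chromatin complexes and is no member, had a log2 fold change of 0.23 (adjusted p = 0.0388, edgeR), and its log2 ratio to Chaf1a differed by -0.69.

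Ratios of a subunit to its partner were computed for 25 pairs of fork genes. The largest decreases of a ratio were those of Pold4, Pole3 and Pole4 to their catalytic subunits, with mean log2 differences of -1.20, -1.14 and -0.95. The Pole3 ratio used the chromosome 7 row alone, and with both Pole3 entries summed the log2 fold change was 0.30 beside 1.24 for Pole, so that the order of Pole3 and Pole4 rests on that row. The largest increases among these 25 pairs were those of Gins1 to Gins2, Timeless to Tipin and Dscc1 to Chtf18, with 0.88, 0.58 and 0.55. Of the ratios added after the values were seen, Atad5 to Rfc1 and Chtf18 to Rfc1 rose by 0.80 and 0.63. Pcna to Rfc2 differed by 0.13 (p = 0.2) and Prim1 to Pola1 by -0.13 (p = 0.3) in the same exact permutation test. After Benjamini-Hochberg adjustment over the 25 pairs the smallest exact p was 0.132, so that no ratio could pass 0.05 in this exact test, which does not use the pairing of replicates.

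**Figure D3:**
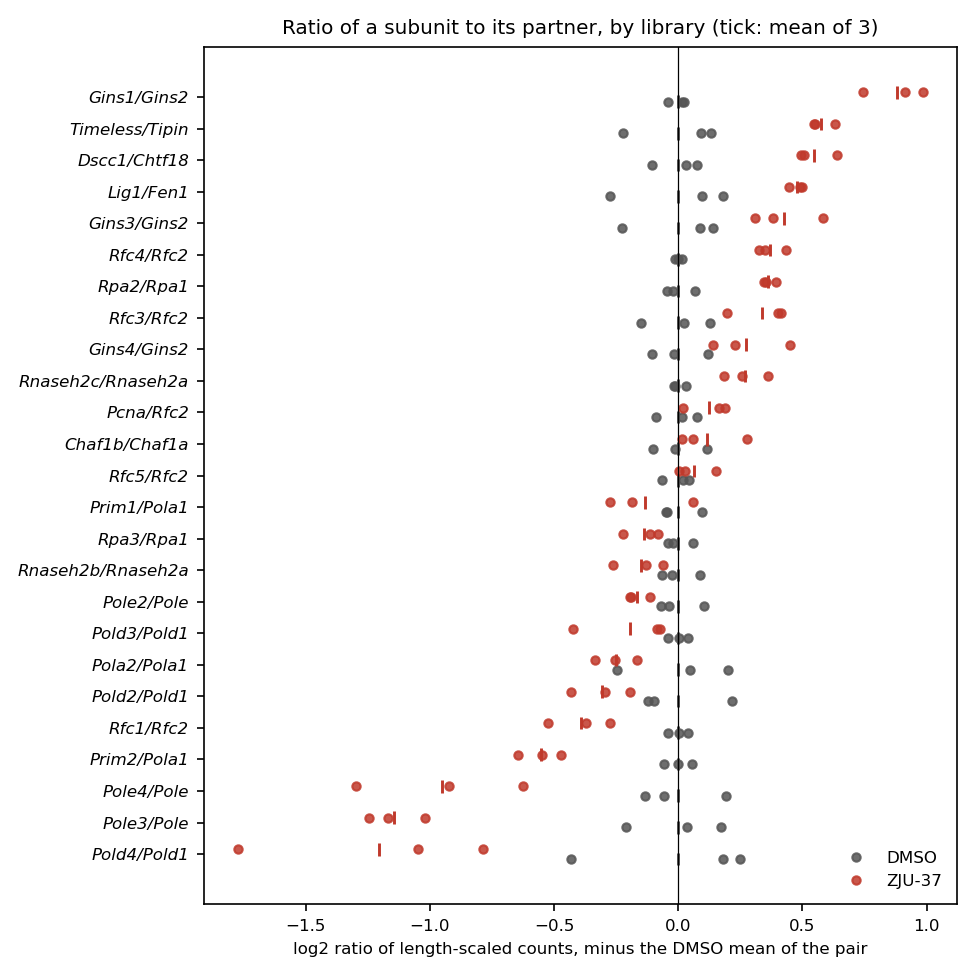
Log2 ratio of length-scaled counts of a subunit to its partner in each library, minus the DMSO mean of that pair, with a tick at the mean of 3 libraries per group. The Pold4, Pole3 (chromosome 7 row) and Pole4 ratios sit lowest in ZJU-37 and the Gins1 to Gins2 ratio sits highest, at a mean difference of 0.88.

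The neighbours of the fork were examined through lists taken from general knowledge, chosen with earlier results of these data known. Of all 14670 tested genes, 9.43% were higher, and 16.2% with the replicate block. Of 16 MCM helicase and licensing genes, 13 were higher and none lower, with Cdc6, an MCM loader, at 1.504 and Orc4, an origin recognition subunit, lowest at -0.33 (adjusted p = 0.0876, edgeR, and 0.0051 with the replicate block). All 5 origin firing genes were higher, from 0.59 for Donson to 1.23 for Dbf4, the activator of the CDC7 kinase. Deoxynucleotide synthesis had 9 of 10 higher, with Rrm2, the S-phase subunit of ribonucleotide reductase, at 1.59 and Rrm2b, its p53-responsive counterpart, at -0.11 (adjusted p = 0.592, edgeR). Of 8 genes of PCNA unloading and ubiquitin, 6 were higher (7 with the replicate block, which added Chtf8), from Pclaf, a PCNA-associated factor, at 1.19 to Shprh at -0.049, which did not pass. Of the 9 tested ATR checkpoint genes, 4 were higher, with Clspn, the claspin gene, at 1.05 and Hus1, a checkpoint clamp subunit, at 0.070. RNA polymerase II subunits, a list outside replication, had 1 of 9 tested genes higher (Polr2f, 0.41), and the block added Polr2b (0.15, adjusted p = 0.0471, edgeR), with Polr2j lowest at -0.13. Median log2 fold changes were 1.06 for licensing, 0.83 for firing, 1.001 for deoxynucleotide synthesis, 0.75 for PCNA unloading, 0.33 for the checkpoint and -0.053 for RNA polymerase II, beside 0.83 for the fork members and -0.027 for all tested genes.

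**Figure D4:**
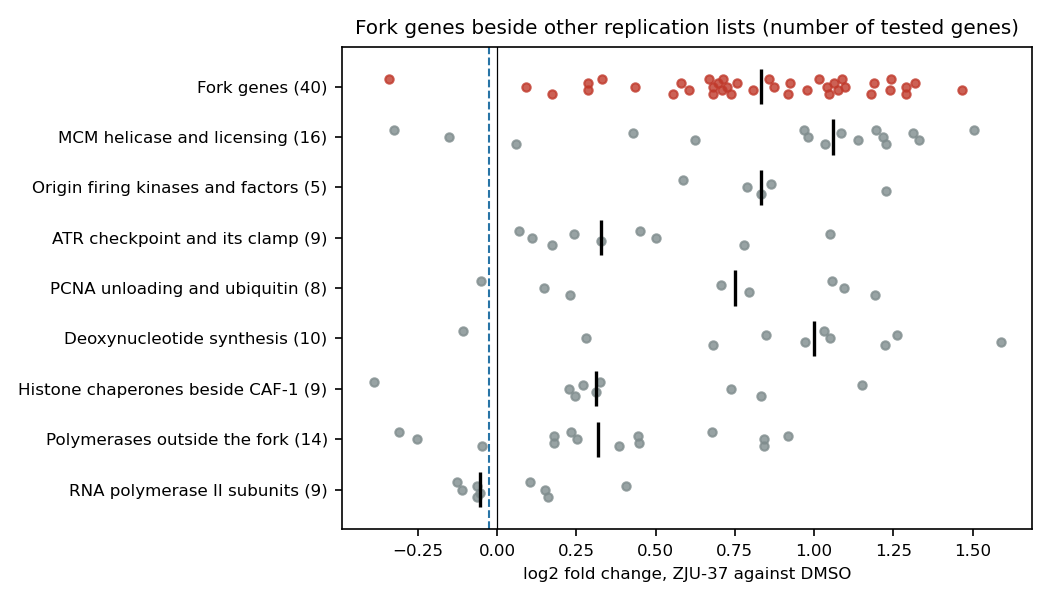
Log2 fold change, ZJU-37 against DMSO, of each tested gene (points) in the fork list and in 8 other lists, with a bar at the median and the dashed line at the median of all tested genes. The fork, licensing, firing and deoxynucleotide lists have medians of 0.83 or more, and the RNA polymerase II list has -0.053.

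Cell type markers moved with the treatment too, and fewer cells of a type cannot be told apart from less RNA per cell in such bulk samples. The summed level of 8 mature oligodendrocyte markers was 11118 to 22103 CPM in DMSO and 4683 to 9796 CPM in ZJU-37, without overlap, and 2 of the 8 were lower at an adjusted p under 0.05 (Cnp and Myrf, edgeR; 6 with the block). For 7 OPC markers the sums were 3857 to 4476 CPM and 4411 to 6076 CPM, with 4 genes higher and 2 lower (Sox10 and Gpr17). Astrocyte markers summed to 947 to 1570 CPM in DMSO and 876 to 1326 CPM in ZJU-37. Microglia markers summed to 1353 to 2225 CPM and 982 to 2075 CPM, and the groups overlapped for both lists. At the threshold 1 of 8 astrocyte and 0 of 8 microglia markers were higher and none lower. With the block, 2 astrocyte markers were higher (Sox9 and S100b) and 3 lower, and 1 microglia marker was lower and none higher. Neuronal markers (428 to 741 CPM) and fibroblast and endothelial markers (31.4 to 93.0 CPM) had none past the threshold (2 lower in each with the block). The endothelial marker Cldn5 was at 0 in all 6 libraries, and no other marker in the table was. Its span lies within that of Cdc45 on the opposite strand, and the Cdc45 row held 3326 counts, so that the 0 of Cldn5 and the level of Cdc45 are less certain without a known counting strand. Their part in the fork result was not tested. The ZJU-37 libraries were on average deeper, and with every library thinned to the smallest total 36 fork members were again higher.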

How the data were processed

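Poly-A RNA-seq covered 3 DMSO and 3 ZJU-37 libraries, grouped by their titles. The authors deposited 1 table with raw counts per gene (featureCounts 1.5.0) and FPKM values made from them, and the submitters' processing notes also name HISAT2 2.0.5 and StringTie 1.3.3b. The genome build is not given in the sources used here. The table's group means, log2 fold changes and p-values of the authors' own comparison were not used. The gene length column was used for ratios.

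Counts were filtered with filterByExpr, scaled by TMM and tested with edgeR 4.0.16 (glmQLFit, robust, and glmQLFTest) in R 4.3.3, the 6 libraries together, and p-values were adjusted by Benjamini-Hochberg over 14670 genes. Replicates differed by at least 9.31 chi-square units per degree of freedom, and none was treated as a duplicate. A count of 3 corresponds to 0.124 to 0.215 CPM. The labels number the replicates but state no pairing. After subtraction of group means, libraries of equal number had correlations over genes of 0.39, 0.31 and 0.33, and unequal numbers -0.27 to -0.012. The unequal values are no separate evidence, since subtracting group means pushes them below 0 when the equal ones are above it. That libraries of equal number belong together is thus read from these same counts. Library values were given for the largest and smallest change of each subcomplex and for other members where the text needed them (Cdc45, Pole2, Pole4 and Pcna, chosen after their values were seen). The members and lists were chosen with earlier results of these data known. The fork was not searched for protein motifs, since protein sequences were not analysed here. The script was tested on simulated data. Alternatives were DESeq2 1.42.0, other scalings, no filter, the block, thinning and leaving out libraries; the sums with annotated copies, the block without a pair and 5 further ratios were added after seeing the data.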

Additional observations from a re-analysis of the deposited data

How the results depend on the processing

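The fork result changed little. Between 32 and 36 members were higher when 1 library was left out (15 members at least 2-fold higher, 12 to 17), 35 with DESeq2 size factors, 36 with DESeq2, library size only, no filter or thinning, and 37 with the replicate block. No member changed direction in any alternative run. Lower members numbered 0 except for Pold4, 1 with the replicate block and 1 with the block without pair 1 or without pair 2. Calls lost without 1 library were those of Rnaseh2a, Rnaseh2c, Rfc1 and, without DMSO replicate 2, Gins4 (adjusted p = 0.0587, edgeR). Rnaseh2a was also lost with DESeq2 size factors (0.0528) and with the block without pair 3 (0.054), where Pold4 and Pole4 were not called either. Pole4 passed without ZJU-37 replicate 1 (0.0481).

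Over the whole table, the replicate block gave 2371 higher and 2334 lower genes against 1383 and 818, a share of higher genes of 50.4% against 62.8%. With the block, higher and lower genes numbered 2706 and 2179 without pair 1, 1679 and 1694 without pair 2, and 1386 and 1075 without pair 3. Leaving out 1 library gave 858 to 1259 higher and 374 to 668 lower genes, fewest without DMSO replicate 2 and without ZJU-37 replicate 3. The causes were not tested. Thinning to the smallest library changed no member's call.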

Other observations

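Some DNA polymerases outside the fork were higher as well. Of 14 tested genes of repair, translesion and mitochondrial synthesis, 5 were higher at an adjusted p under 0.05 in edgeR (7 with the replicate block, which added Polh and Rev1) and none lower, with a median log2 fold change of 0.32. Of all tested genes, 9.43% were higher, and 16.2% with the block. Rev3l, the catalytic subunit of translesion polymerase zeta, had 130.5, 109 and 109 CPM in DMSO and 271, 193 and 195 CPM in ZJU-37, a log2 fold change of 0.92 (SE 0.15, edgeR adjusted p = 0.00996). Polg, the mitochondrial DNA polymerase, had 112, 109 and 104 CPM and 207, 182 and 193 CPM, a log2 fold change of 0.84 (SE 0.068, edgeR adjusted p = 5.49e-04). The libraries of both genes were apart. Polq, of microhomology end joining, Primpol, which reprimes stalled forks, and Mad2l2, the partner of REV3L, were higher with log2 fold changes of 0.84, 0.68 and 0.44. Polm had the lowest value of the list, -0.31 (adjusted p = 0.14, edgeR). Rev3l shares the B family of catalytic subunits with Pola1, Pold1 and Pole. Polg, Polq, Primpol, Mad2l2 and Asf1a were named after their values were seen.

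The list of histone chaperones beside CAF-1 also holds the CAF-1 subunit Rbbp4, which was among the higher genes. It had 7 of 9 genes higher (8 with the replicate block, which added Asf1a) and none lower, with a median log2 fold change of 0.31. The shares of all tested genes were 9.43% higher, and 16.2% with the block. Asf1b, which hands histones to CAF-1, went from 14.3, 16.6 and 14.7 CPM to 36.0, 32.1 and 33.4 CPM, a log2 fold change of 1.15 (SE 0.093, edgeR adjusted p = 5.49e-04). Its relative Asf1a had 0.27 (adjusted p = 0.0896, and 0.0118 with the block, edgeR), and Hira, a chaperone that works outside replication, had -0.39 (adjusted p = 0.168, edgeR). The difference between these genes was not tested.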
